A study of Arabidopsis thaliana with 4 samples.

Results

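Expansins are small secreted proteins that loosen plant cell walls at acid pH without cutting the wall polymers, so that turgor can stretch the cell. The α-expansins (EXPA genes) act mainly on the contacts between cellulose and other wall polymers. The β-expansins (EXPB genes) form a related branch, and the expansin-like A and B genes (EXLA and EXLB) are family members whose wall-loosening activity is not established. In a stem laid on its side, auxin accumulates in the lower flank, proton pumps acidify the wall there, and faster growth of that flank turns the shoot upward.

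The 10 expansin genes described here were EXPA1, EXPA3, EXPA4, EXPA5, EXPA6, EXPA8, EXPA10, EXPA11 and EXPA15 of the α branch and EXPB3 of the β branch. They were set by a list of locus names, and the rule itself uses no measured value. Each was read by 1 probe of 60 bases that the array's annotation assigned to that locus alone, and the 10 stood among 20219 loci measured. All 10 were tested, and all were well above background in all 8 channels, with no saturated spot. EXPA10 was the dimmest, with mean signals of 99 to 166 over local backgrounds of 49 to 63. EXPA6 was the brightest, with mean signals of 2646 to 7794.

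The plants were Arabidopsis thaliana of the Col ecotype, with no mutation or transgene named in the labels. Plants with stems of 4 to 8 cm were laid flat in dim light without a fixed direction at 23 °C for 10 min in one group and 30 min in the other. After the top 5 mm had been discarded, a segment of 3 cm was split by hand into its upper and lower flank. Each time had 2 arrays on which both flanks were hybridized together, with the lower flank in Cy5 on replicate 1 and in Cy3 on replicate 2. The labels name the replicates biological, but the labelling protocol describes both dyes for every cRNA, so the spread between the arrays of a time may be technical. Every stem had been laid flat, with no upright stem among the samples, and no source used here gives the number of plants in a sample.

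The median mean signal of the gene probes ran from 156 to 333 in the lower-flank channels and from 178 to 299 in the upper-flank channels. KNAT1, a homeobox gene of the growing stem, was well above background in every channel, as were all 8 markers of epidermis, 5 of photosynthetic tissue, 10 of xylem and fibre and 4 of phloem on the array. Of 5 flower markers, AP1 and SEP3 were so in all 8 channels, AP3 in 7, PI in 4 and AG in 0. Of 5 root markers, 4 were so in every channel, among them the expansin genes EXPA7 and EXPA18, and PYK10 in 1. Those 4 were dim, with mean log2 levels (log2 of the normalized probe signal) of 6.13 to 6.96 in the lower flank at 10 min. AP1 (6.21) and SEP3 (6.19) were dim too, near AG (5.81). The markers of stem and its tissues ran from 7.35 (APL) to 15.91 (RBCS1A) there. In samples of whole tissue, fewer cells of a type and less RNA per cell cannot be told apart.

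The probes lie on chromosomes 1 to 4 in the array's annotation, whose genome build no source used here gives. Their places in that annotation were chr1:26146605-26146664 on the plus strand for EXPA1 (AT1G69530), chr2:12438923-12438982 on the minus strand for EXPA6 (AT2G28950), chr2:16956285-16956344 on the minus strand for EXPA8 (AT2G40610) and chr4:14000299-14000358 on the minus strand for EXPB3 (AT4G28250). In the TAIR10.1 assembly EXPA1 spans 26141726-26143538, EXPA6 12431338-12433796, EXPA8 16948791-16950705 and EXPB3 13999625-14002124. Of these genes only EXPB3 holds its probe's place by those coordinates. The places for EXPA3 and EXPA4 also fall outside, and those for EXPA5, EXPA10, EXPA11 and EXPA15 inside. Whether both sets of coordinates share a build is not known. Which exon or untranslated region each probe reads, and how far it also binds the RNA of other expansins, was not tested. The other genes were AT2G37640 (EXPA3), AT2G39700 (EXPA4), AT3G29030 (EXPA5), AT1G26770 (EXPA10), AT1G20190 (EXPA11) and AT2G03090 (EXPA15).

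The first comparison asked which expansin transcripts differed between the flanks after 10 min. EXPA1, which is known for wall loosening in guard cells, was the member with the widest flank difference, 1.20-fold higher in the lower flank. EXPA8, known like EXPA1 as a target of the growth-promoting factor HBI1, leaned to the lower flank by a smaller amount, and EXPA3 and EXPA5 leaned to the upper flank. The other 6 members lay within 0.037 of zero on the log2 scale. None of the 10 passed the test after correction over all genes.

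For EXPA1 the log2 ratio of lower over upper flank at 10 min was 0.30 on replicate 1 and 0.23 on replicate 2. Its log2 level (the log2 of the normalized probe signal) was 10.20 and 10.17 in the lower flank and 9.90 and 9.94 in the upper flank. The flanks did not overlap, and the gap between them was several times the gap between replicates of a flank. The mean ratio was 0.26 ± 0.040 (limma, SE, n = 2 arrays), with an unadjusted p of 0.0013 and an adjusted p of 0.555. A share of 99.7% of all genes tested had a smaller absolute flank difference at this time. With either 30 min array left out of the shared estimate of spread, the same difference was called. The 30 min group then had 1 array, and the SE was nearly the same for the genes named from other lists (0.058 to 0.059).

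EXPA8 had log2 ratios of 0.12 and 0.068 on the 2 arrays, with a mean of 0.093 ± 0.036 (adjusted p = 0.806). Both arrays thus put it higher in the lower flank. EXPA3 had ratios of -0.18 and -0.10, a mean of -0.14 ± 0.037 (adjusted p = 0.636), and was lower in the lower flank on both. EXPA5, which promotes growth downstream of brassinosteroid, had ratios of -0.057 and -0.090, a mean of -0.073 ± 0.038 (adjusted p = 0.943). Among the rest, EXPA6 (-0.049 and -0.025) and EXPA11 (-0.030 and -0.00075) were below zero on both arrays by little. EXPA4 (-0.015 and 0.0015), EXPA10 (0.021 and -0.051), EXPA15 (0.081 and -0.019) and EXPB3 (0.11 and -0.15) lay on opposite sides of zero on the 2 arrays.

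At 10 min 0 of 10 members were called at an adjusted p under 0.05 (limma), where the background is 0% of all 18234 genes tested. An unadjusted p under 0.05 was found for 3 members, beside 1116 of those 18234 genes. With replicate number, which is here the dye orientation, as a block, 4 of 10 were called, against a background of 23.4%. These were EXPA1 (adjusted p = 3.1e-04) and EXPA8 (0.0087), higher in the lower flank, and EXPA3 (0.0043) and EXPA5 (0.031), higher in the upper flank. Both arrays put 2 of 10 members higher in the lower flank, against 22.4% of all genes, and 4 lower, against 20.7%. The median over the members was -0.015, and over all genes 0.0027.

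After 30 min the same question was put to the second pair of arrays. EXPA1 now lay below zero on both. EXPA8 and EXPA6 read higher in the lower flank, and EXPA3, EXPA5 and EXPA11 in the upper flank, none by more than 0.20 on the log2 scale. Again no member passed the test without the block.

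EXPA1 at 30 min had log2 ratios of -0.081 and -0.16, a mean of -0.12 ± 0.040 (adjusted p = 0.346). Its lower flank stood at log2 levels of 10.25 and 9.90 and its upper flank at 10.33 and 10.06. The flanks of different arrays overlapped, but within each array the upper flank was the higher. EXPA8 had ratios of 0.17 and 0.14, a mean of 0.15 ± 0.036 (adjusted p = 0.203), so that all 4 arrays of the series put it higher in the lower flank. EXPA6 had ratios of 0.13 and 0.12, a mean of 0.13 ± 0.034 (adjusted p = 0.247), where both arrays at 10 min were slightly negative.

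EXPA3 had ratios of -0.15 and -0.17 at 30 min and a mean of -0.16 ± 0.037 (adjusted p = 0.205). All 4 arrays put EXPA3 higher in the upper flank. EXPA11 had ratios of -0.088 and -0.13 and a mean of -0.11 ± 0.035 (adjusted p = 0.326). EXPA5 had a value on replicate 1 only, -0.20 ± 0.053 (adjusted p = 0.303), because its spot on replicate 2 was marked as an outlier by the scanner software and left out. With each array centred on its median in place of loess, that single value was 0.0076, so its direction depends on the normalization. The remaining members had opposite signs on the 2 arrays. EXPA4 had 0.016 and -0.060, EXPA10, which is known from leaf growth, had 0.072 and -0.057, and EXPA15 had 0.020 and -0.094. EXPB3 had 0.18 and -0.033, and its ratio was higher at both times on the array with the lower flank in Cy5, by a dye contrast (the difference between the arrays divided by 2) of 0.13 at 10 min and 0.11 at 30 min.

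**Figure D1:**
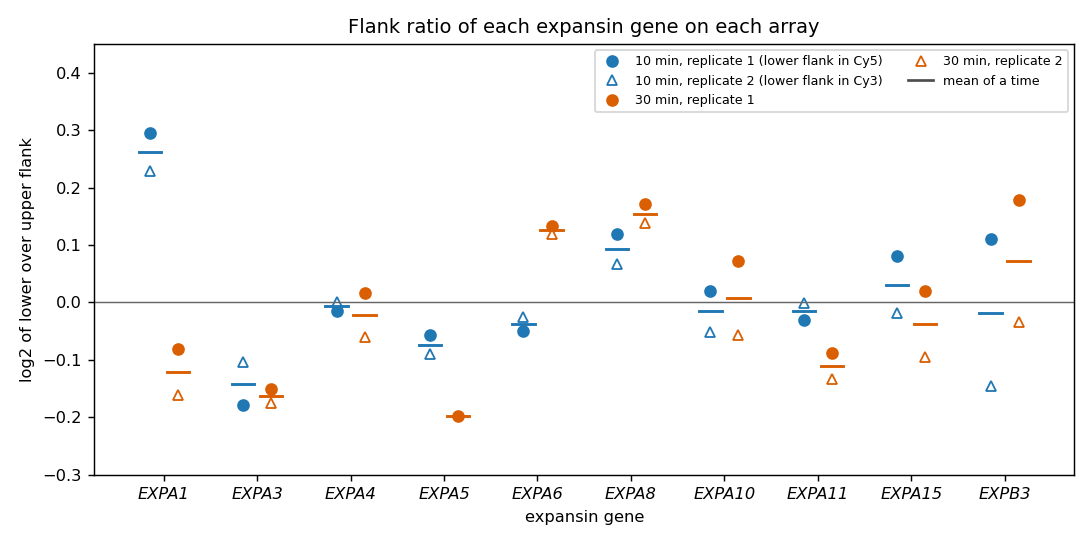
Log2 ratio of lower over upper flank (vertical axis) for each of the 10 expansin genes on each of the 4 arrays; filled circles are replicate 1, open triangles replicate 2, blue 10 min, orange 30 min, and bars the mean of a time (EXPA5 has 1 array at 30 min). EXPA1 goes from 0.30 and 0.23 at 10 min to -0.081 and -0.16 at 30 min, while EXPA8 lies above zero and EXPA3 below zero on all 4 arrays.

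At 30 min 0 of 10 members were called (limma), against a background of 0.528% of the 18183 genes tested. An unadjusted p under 0.05 was found for 6 members, beside 2153 of those 18183 genes. With replicate number as a block 7 of 10 were called, against a background of 34.6%. EXPA6 (adjusted p = 0.0014), EXPA8 (5.1e-04) and EXPB3 (0.017) were then higher in the lower flank. EXPA1 (0.0015), EXPA3 (0.0011), EXPA5 (0.0028) and EXPA11 (0.0041) were then higher in the upper flank. The EXPA5 call rests on the 1 array that has a value, assumed to vary like the others, and 6 of the 7 rest on both arrays. Both arrays put 2 of the 9 members with both values higher in the lower flank, against 25.2% of all genes, and 3 lower, against 24.2%. The median was -0.030 for the members and -0.00062 for all genes.

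Beside these values stand the tissue markers at 30 min. In the test 0 of 8 epidermis, 0 of 5 photosynthetic and 0 of 10 xylem and fibre markers were called (limma; 5, 3 and 2 at an unadjusted p under 0.05), and 1 of 4 phloem markers, PP2-A1 at -0.36 ± 0.038 (adjusted p = 0.045). The upper flank was the higher on both arrays for 5 of 6 epidermis markers, 3 of 5 of photosynthetic tissue, 8 of 9 of xylem and fibre and 3 of 4 of phloem, with medians of -0.19, -0.17, -0.10 and -0.16, against 24.2% of all genes, and for none of them did both arrays put the lower flank higher. At 10 min their medians were -0.0100, 0.030, -0.00060 and 0.077. The summed signal of the 5 epidermis markers with values on all arrays was 9443 to 11001 in the lower and 11122 to 12393 in the upper flank at 30 min, and 9981 to 10398 and 10506 to 10547 at 10 min. For phloem it was 2838 to 3270 and 3300 to 3677 at 30 min, and 3380 to 3406 and 3094 to 3240 at 10 min. The sums for xylem and fibre ran from 4391 to 4682 and from 4559 to 5253 at 30 min, and those for photosynthetic tissue from 102198 to 122783 and from 111545 to 139894. At 10 min these sums were 4574 to 4639 and 4322 to 4781 for xylem and fibre, and 109096 to 149433 and 113866 to 150529 for photosynthetic tissue. The part of these tissues in the upper-flank values of EXPA1, EXPA3, EXPA5 and EXPA11 was not tested.

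**Figure D2:**
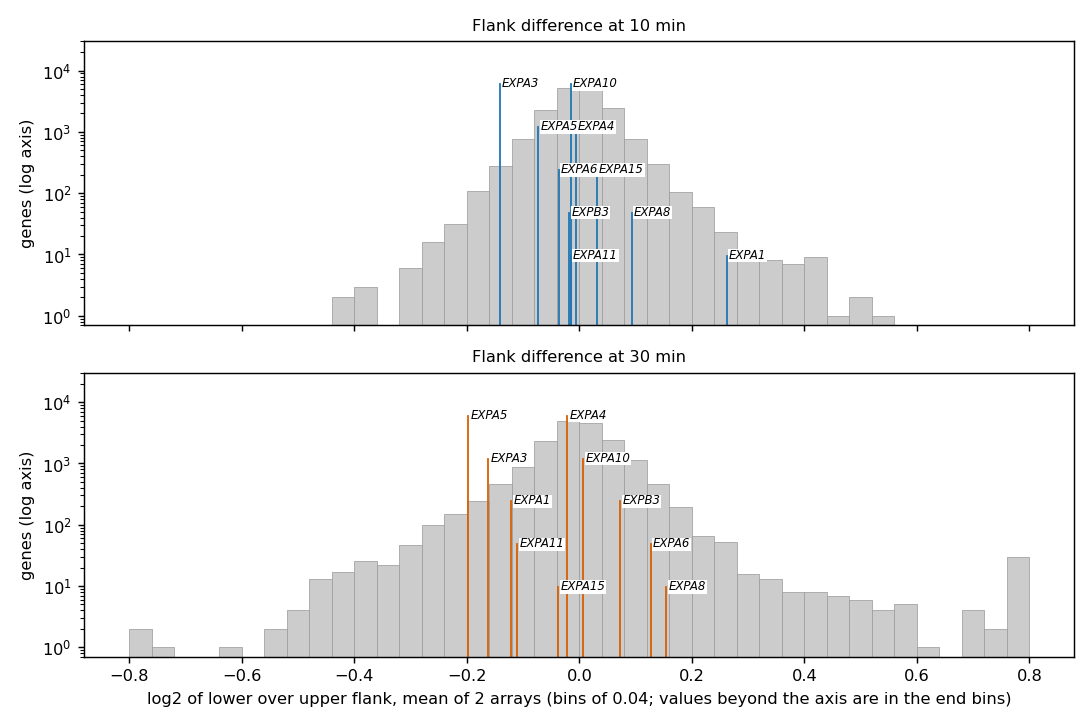
Number of genes (vertical log axis) by log2 flank difference (horizontal axis, bins of 0.04, values beyond the axis in the end bins) at 10 min above and 30 min below, with a coloured line at each expansin gene; the height of a line has no meaning, and EXPA5 at 30 min rests on 1 array. EXPA1 stands at 0.26 at 10 min, beyond 99.7% of genes in absolute size, and at 30 min no expansin gene goes beyond 0.20 in either direction.

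The flank differences at the 2 times were then compared with each other. EXPA1 had the largest difference between times among the members: its log2 ratio at 30 min minus that at 10 min was -0.38 ± 0.057, with an unadjusted p of 0.0011 and an adjusted p of 0.130. Both of its 30 min ratios lay below both of its 10 min ratios, and 98.8% of genes had a smaller absolute change. EXPA6 went the other way by 0.16 ± 0.047 (adjusted p = 0.284), again without overlap. For EXPA3 the difference between times was -0.021 ± 0.053 and for EXPA8 0.062 ± 0.050, with adjusted p-values of 0.943 and 0.753.

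None of the 10 members was called in this comparison (limma), against a background of 0.127% of genes. An unadjusted p under 0.05 was found for 2 members, beside 2317 of all 18167 genes. The block gave calls for 5 of 10, against a background of 38%: EXPA1 (adjusted p = 5.3e-05), EXPA5 (0.023) and EXPA11 (0.029) with a lower ratio at 30 min, and EXPA6 (0.0021) and EXPB3 (0.025) with a higher one. EXPA5 has a single array at 30 min here too. Ratios at 30 min lay wholly above those at 10 min for 2 of 9 members, against 19.5% of genes, and wholly below for 2, against 19.9%. Without the block, the EXPA1 change was -0.42 without 10 min replicate 2 and -0.42 without 30 min replicate 1, and it was called in both fits. In each, 1 time had a single array, so the dyes were not balanced there. Without 10 min replicate 2 the genes named from other lists shared an SE of 0.11, so a gene's own spread did not enter.

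The level of each gene in the stem segment as a whole was compared between 30 and 10 min, as the average of both flanks. EXPB3 was the 1 member that passed the test, at 1.42-fold higher after 30 min. EXPA11 was 1.40-fold higher without passing, and EXPA15 and EXPA6 were higher by less. The other 6 lay between 0.96-fold and 1.11-fold.

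EXPB3 stood at an average log2 level of 8.27 on both 10 min arrays and at 8.85 and 8.71 on the 30 min arrays. The times did not overlap, and the difference was 0.51 ± 0.084 (adjusted p = 0.036). The call was lost without 10 min replicate 1 (adjusted p = 0.129), without 10 min replicate 2 (0.073), with the processed signals (0.064), with signals scaled to a common median (0.053) and without the filter on dim probes (0.051). EXPA11 stood at 9.45 and 9.93 at 10 min and at 10.36 and 9.99 at 30 min, a difference of 0.49 ± 0.19 (adjusted p = 0.186). Its replicates lay further apart than those of other members, and without 10 min replicate 2 the difference was 0.72. With replicate number as a block the adjusted p of EXPA11 was 0.0071 (limma). That fit gave every member with values on all arrays the same SE of 0.14, so the spread of EXPA11 itself did not enter.

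EXPA15 stood at 7.65 and 7.59 at 10 min and 7.83 and 7.91 at 30 min, higher by 0.25 ± 0.078 (adjusted p = 0.125). EXPA6 stood at 12.06 and 12.15, then 12.36 and 12.28, higher by 0.21 ± 0.081 (adjusted p = 0.177). In both genes the times did not overlap. EXPA8, with 8.43 and 8.48 at 10 min, had 8.72 and 8.48 at 30 min, a difference of 0.15 ± 0.10 (adjusted p = 0.398). EXPA1 (0.081 ± 0.12), EXPA3 (0.078 ± 0.087), EXPA4 (0.12 ± 0.12), EXPA5 (0.027 ± 0.10) and EXPA10 (-0.064 ± 0.079) had differences no larger than about their errors. Without 30 min replicate 2, EXPA1 (0.24, adjusted p = 0.041) and EXPA8 (0.26, 0.040) were called too, in a fit that called 5495 genes instead of 801.

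**Figure D3:**
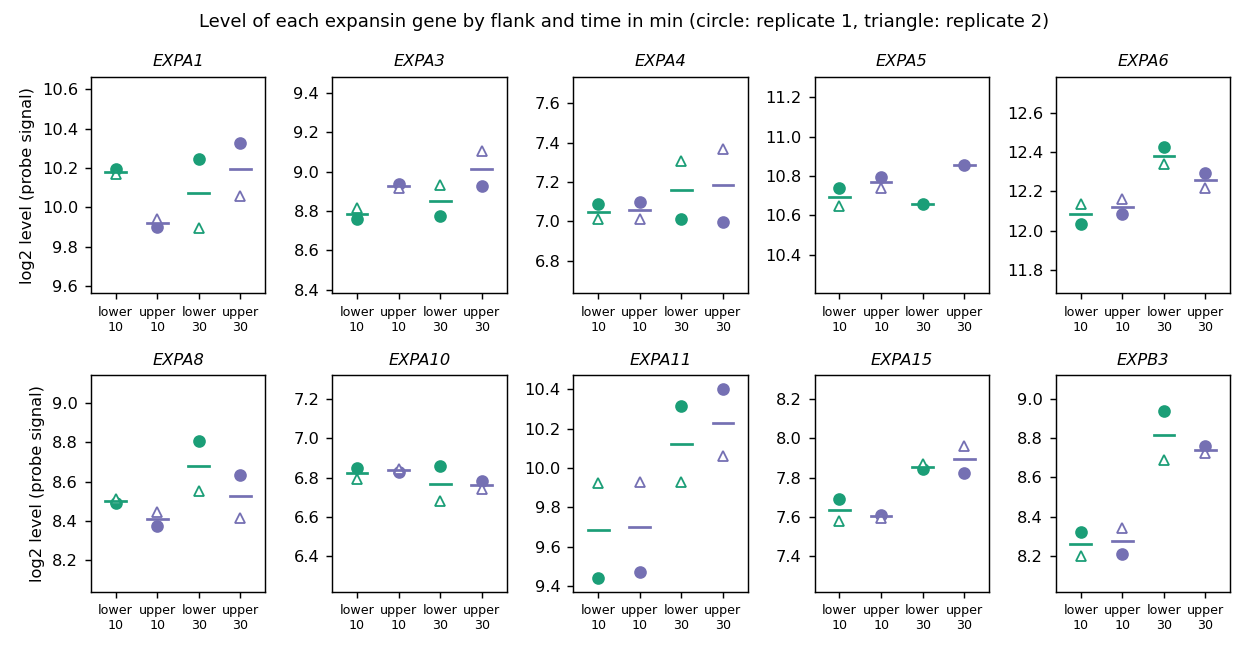
Log2 level (vertical axis, log2 of the normalized probe signal, the same span in every panel but a different offset) of each expansin gene in the lower (green) and upper (purple) flank at 10 and 30 min; circles are replicate 1, triangles replicate 2 and bars their mean. EXPB3 stands at 8.20 to 8.34 in all 10 min channels and at 8.69 to 8.94 in all 30 min channels, while the replicates of EXPA11 are spread over 9.44 to 9.93 at 10 min.

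For the average level 1 of 10 members was called, against a background of 4.41% of genes, and with the block 2 of 10 (EXPA11 and EXPB3), against a background of 9.84%. Levels at 30 min lay wholly above those at 10 min for 5 of 9 members, against 36.1% of genes, and wholly below for 0, against 24.2%. The median change was 0.13 for the members and 0.040 for all genes.

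Taken flank by flank, EXPB3 was called in the lower flank. Its log2 level there was 8.32 and 8.20 at 10 min and 8.94 and 8.69 at 30 min, a difference of 0.55 ± 0.15 or 1.47-fold (adjusted p = 0.046). In the upper flank it had 8.21 and 8.34, then 8.76 and 8.72, a difference of 0.46 ± 0.15 (adjusted p = 0.102). With the block, which for single flanks also holds a term for the dye, the adjusted p was 0.016 (limma). Both flanks thus stood higher at 30 min, and the flanks of a time overlapped. Fitted on its own channel, the upper flank was called as well (adjusted p = 0.047). The lower-flank call was lost without 10 min replicate 2 (adjusted p = 0.069), without 30 min replicate 1 (0.211) and without 30 min replicate 2 (0.0504), and with 4 other settings of the background, normalization or scaling.

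EXPA1 had estimates of opposite sign in the 2 flanks. Its lower-flank mean was 10.18 ± 0.019 (SD, n = 2) at 10 min and 10.07 ± 0.25 at 30 min, a difference of -0.11 ± 0.12 (adjusted p = 0.590). Its upper-flank mean was 9.92 ± 0.028 at 10 min and 10.19 ± 0.19 at 30 min, a difference of 0.27 ± 0.12 (adjusted p = 0.210). From lowest to highest its mean levels ran upper flank at 10 min, lower flank at 30 min, lower flank at 10 min and upper flank at 30 min, and the replicates of each neighbouring pair in this order overlapped. Neither flank alone passed the test. Without 30 min replicate 2, which left 1 array at 30 min, the upper-flank difference was 0.41.

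EXPA6 in the lower flank had 12.03 and 12.14 at 10 min and 12.43 and 12.34 at 30 min, a difference of 0.30 ± 0.086 (adjusted p = 0.060; 0.048 with the block and 0.0495 without the filter on dim probes). In its upper flank the difference was 0.13 ± 0.086 (adjusted p = 0.407). EXPA11 was higher at 30 min by 0.44 ± 0.17 in the lower flank (adjusted p = 0.132) and by 0.53 ± 0.17 in the upper (0.102). Both values depend on the 10 min arrays, which lay far apart: without 10 min replicate 2 they were 0.68 and 0.76. EXPA15 differed by 0.22 ± 0.099 in the lower flank and 0.29 ± 0.099 in the upper (adjusted p = 0.192 and 0.128). EXPA8 had 0.18 ± 0.10 and 0.12 ± 0.10, and EXPA3, EXPA4 and EXPA10 had estimates between -0.075 and 0.13 in both flanks. EXPA5, without a value on every array, was not in the test of single flanks; its mean levels were 10.70 ± 0.064 (lower) and 10.77 ± 0.041 (upper) at 10 min, and 10.66 and 10.86 on the 1 array at 30 min.

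**Figure D4:**
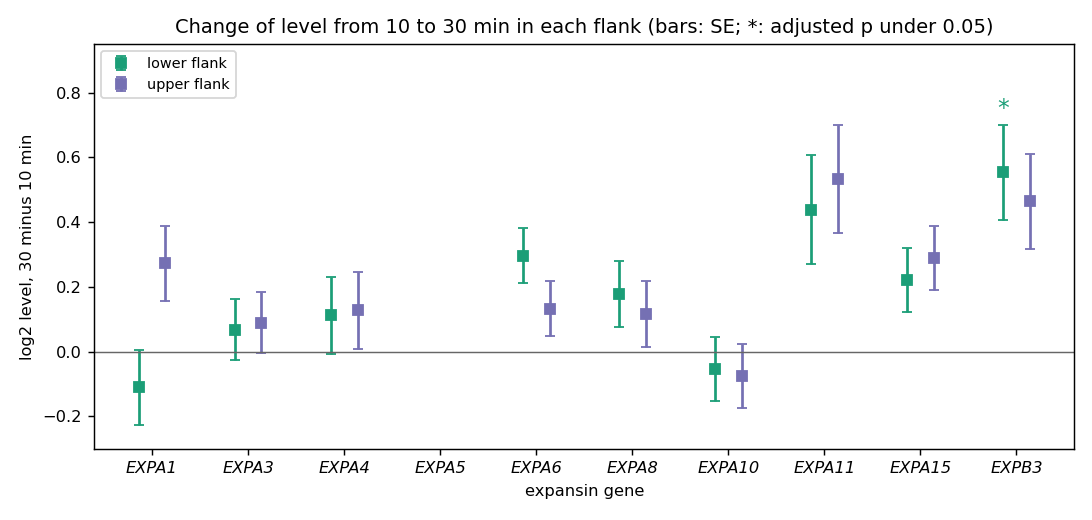
Log2 level at 30 min minus that at 10 min (vertical axis) in the lower flank (green) and the upper flank (purple) of each expansin gene; squares are limma's estimates, bars their SE, and the star marks an adjusted p under 0.05 (EXPA5 was not fitted). EXPB3 is at 0.55 in the lower flank and 0.46 in the upper, and EXPA1 is at -0.11 and 0.27, on opposite sides of zero.

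In the lower flank 1 of 9 members was called, against a background of 9.88% of genes, and with the block 2 (EXPA6 and EXPB3), against a background of 16.5%. In the upper flank 0 of 9 were called (limma), against a background of 6.03%, and with the block 1 (EXPB3), against a background of 10%. Without the block 4 of the 9 had an unadjusted p under 0.05, beside 3890 of all 17754 genes. Levels at 30 min lay wholly above those at 10 min for 5 of 9 members in the lower flank (35.6% of genes) and for 5 of 9 in the upper (32.1%), and wholly below for 0 (23.7%) and 1 (22.1%). The medians of the members were 0.18 for lower flanks and 0.13 for upper flanks, beside 0.043 and 0.036 over all genes.

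Tissue markers were among the genes called between the times in the lower flank. KNAT1 rose by 0.34 ± 0.082 (limma adjusted p = 0.033). The photosynthetic markers LHCB5 (-0.33, 0.042) and LHCA4 (-0.54, 0.012), the epidermis marker CER5 (-0.44, 0.021) and the phloem marker PP2-A1 (-0.44, 0.024) fell. The median was -0.33 for the 5 photosynthetic markers and -0.12 for the 4 of phloem, but 0.14 for the 5 epidermis markers tested. Of these 5 epidermis markers, 2 had levels at 30 min wholly above those at 10 min and 1 wholly below. KNAT1 had 0.30 in the upper flank and 0.32 in the average level and was not called in either. The part of these tissues in the level changes of the expansin genes was not tested.

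Over the 8 channel levels, which come from 4 arrays and share array and dye effects, the 9 members with all values formed no single pattern. The highest Pearson correlations, as a description, were between EXPA6 and EXPB3 (0.90), EXPA15 and EXPB3 (0.88) and EXPA6 and EXPA11 (0.83), all of them genes with a higher mean level at 30 min. EXPA4 and EXPA10 ran opposite (-0.77). The genes most like EXPA1 by this measure among 17754 were the VQ motif gene AT5G46780 (0.99), AT3G47070 (0.98) and AT3G54500 (0.97). Those most like EXPA8 were SPL3, a squamosa promoter-binding factor (0.99), TPPD, a putative trehalose-phosphate phosphatase (0.98), and UNE10, a basic helix-loop-helix factor (0.98).

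Among the 26 other expansin and expansin-like genes of the genome list, 24 were on the array and 20 were tested. At 10 min 0 of them were called (limma; 1 at an unadjusted p under 0.05), with a median of 0.0052; EXLB1 had 0.21 ± 0.039 (adjusted p = 0.560) and EXLA1 0.077 ± 0.036. At 30 min 1 was called: EXLA2 had ratios of 0.34 and 0.36 and a mean of 0.35 ± 0.036 (adjusted p = 0.045), and the list's median was -0.011. The EXLA2 call was lost under 5 other settings with a like value, among them the processed signals (adjusted p = 0.098). EXLA1, its close relative, had -0.29 and -0.24 and was not called (adjusted p = 0.081). In the comparison between times 0 were called (limma; 3 at an unadjusted p under 0.05), with EXLA2 at 0.35 ± 0.051 and EXLA1 at -0.34 ± 0.052.

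EXLA2 fell between the times in the upper flank and EXLA1 in the lower flank. The upper-flank level of EXLA2 was 9.35 and 9.43 at 10 min and 8.72 and 8.74 at 30 min, a change of -0.66 ± 0.084 (adjusted p = 0.0027), and its average level changed by -0.48 ± 0.074 (0.030). The lower-flank level of EXLA1 was 8.61 and 8.62, then 8.13 and 8.23, a change of -0.44 ± 0.085 (adjusted p = 0.015). The EXLA2 call in the upper flank was kept under every alternative run. The average-level call of EXLA2 was lost with the processed signals (-0.55, limma adjusted p = 0.068) and without either 10 min array. The EXLA1 call was lost without 10 min replicate 1, 10 min replicate 2 or 30 min replicate 1. No other gene of the 20 was called in any of the 6 comparisons without the block. With replicate number as a block, 5 of the 20 were called at 10 min (4 higher in the lower flank and 1 lower, EXLB1 at an adjusted p of 5.2e-04), 5 at 30 min and 7 between times, against backgrounds of 23.4%, 34.6% and 38%. The medians of the 20 were -0.0089 for the average level, -0.028 for the lower and 0.034 for the upper flank.

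The xyloglucan endotransglucosylases (XTH genes), which cut and rejoin the xyloglucan chains of the wall, had 27 of 30 genes tested. At 10 min 0 were called (limma; 4 at an unadjusted p under 0.05), the median was 0.023, and XTH33 (0.22) and XTH24 (0.16) had the largest values. At 30 min XTH24 alone was called, at -0.54 ± 0.056 (adjusted p = 0.045), and the median was -0.018. Between times 0 were called (limma; 7 at an unadjusted p under 0.05). With the block 9 were called higher and 2 lower at 10 min, 6 and 8 at 30 min, and 4 and 8 between times. The backgrounds of all genes called in both directions were 23.4%, 34.6% and 38%. XTH22, a touch-induced gene, fell in the average level (-0.68, adjusted p = 0.016), in the lower flank (-0.46, 0.021) and in the upper flank (-0.89, 0.0012). XTH8 rose in the average level (0.57, 0.020) and the lower flank (0.73, 0.029), XTH6 fell in the lower flank (-0.48, 0.0094), and XTH18 rose in the upper (0.67, 0.014). The upper-flank call of XTH22 was kept under every alternative run, and each of the other XTH calls, except that of XTH22 in the average level, was lost under at least 1.

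The acid growth list held SAUR genes, whose products keep the plasma membrane proton pumps active by inhibiting PP2C.D phosphatases, with those phosphatases and the pumps AHA1 and AHA2. At 10 min 0 of 12 were called (limma; 6 at an unadjusted p under 0.05), with SAUR24 at 0.48 and SAUR21 at 0.44 and a median of 0.23. With the block 7 of 12 were called, against a background of 23.4%. Of these, 6 were higher in the lower flank and 1 lower, with SAUR24 at an adjusted p of 1.1e-04 and SAUR21 at 8.7e-05. At 30 min 7 were called, all higher in the lower flank, with SAUR19 at 1.68 ± 0.037, SAUR24 at 1.65, SAUR23 at 1.57 and SAUR20 at 1.56, and a median of 1.36. Those 4 calls were lost with median centring of each array in place of loess, where the values were 1.58 to 1.71. Between times 7 were called, all with a higher ratio at 30 min. SAUR19, SAUR20, SAUR23 and SAUR24 were the 4 recomputed under other settings. None of them was called with the processed signals (SAUR19 at 1.43, limma adjusted p = 0.052) or the series table (SAUR19 at 1.43, 0.052). With median centring none was called either (SAUR19 at 1.29). In the lower flank 5 rose and 0 fell between the times, among them PP2C.D1 (0.69) and SAUR19 (0.60), and in the upper flank 7 fell, among them SAUR20 (-0.93) and SAUR24 (-0.79). In the average level 0 of 12 were called (limma), with SAUR20 at -0.37 and AHA1 at 0.24. There 2 of the 12 had an unadjusted p under 0.05, beside 4565 of all 18167 genes. The SAUR19 to SAUR24 genes are near-identical copies, so their probes may read one another's RNA. Beside these values the flank differences of the 10 expansin genes at 30 min ran from -0.20 to 0.15.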

How the data were processed

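Feature Extraction 8.1.1.1 (Agilent) quantified the images, per the file headers. The intensity values taken from the deposited files were mean spot brightness and median local background, with nothing subtracted. A processed intensity, background-subtracted and dye-normalized, and the log10 of processed Cy5 over Cy3 stand beside them, per the file headers. The authors' series table gives log10 of the lower over the upper flank: its replicate 2 columns differed from the processed signals' ratios by at most 0.0050, its replicate 1 columns by at most 0.324 (95.5% and 94.9% of spots within 0.01). Direction and log10 scale follow from that comparison, whether it was centred is unknown, and its column medians were 0, -0.0013, 0 and -0.0026. Other deposited values, flags of 0 or 1, told which spots were well above background, saturated or outliers.

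Background correction was normexp with an offset of 50 (limma 3.58.1, R 4.3.3). Ratios were normalized by loess within arrays, and levels were scaled by Aquantile. Control spots (1075 of 22575) carried no weight, and outlier spots were left out. A gene was its brightest probe of 1 locus, tested if well above background on both arrays of a flank and time (18286 genes). Flank ratios and average levels were fitted with lmFit and eBayes, single flanks with lmscFit (intraspot correlation 0.79), the latter for genes with values on all arrays. Tests are two-sided. Adjusted p-values are Benjamini-Hochberg values over every gene in the fit, and ± is the SE unless SD is named. Scripts were tested on simulated data.

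Replicate number is the dye orientation, per the labels, so the block pairs arrays of different times by dye. Whether arrays with the same replicate number also share plants or a batch is not known. Without a dye term, the flank errors hold dye effects: the SD over genes was 0.060 for the dye contrast and 0.016 for the contrast left after flank, time and dye, and dye contrasts correlated at 0.87 between the times. For flank ratios the block fit removes the dye effect and leaves 1 residual degree of freedom before moderation. EXPA5, which lacks 1 array, has none left, so its block calls at both times rest on the spread of other genes. In the average level each array holds both dyes, so the block there is a term for replicate number and not a dye correction. For single flanks the block fit holds a term for replicate number and another for the dye. The members and gene lists were chosen with earlier results of these data known. All 10 members are named in every comparison. From the lists of other expansins, xyloglucan enzymes and acid growth genes the called genes are named, at most 4 a comparison, or else the 2 with the largest difference on the same side of both arrays, and for EXPA1 and EXPA8 the 3 most alike genes. Symbols came from a RefSeq table (assembly TAIR10.1), which calls EXPA3 EXP3.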

Additional observations from a re-analysis of the deposited data

Results flagged for a closer look

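The flank difference of EXPA1 had opposite signs at the 2 times on every array: above zero on both arrays at 10 min and below zero on both at 30 min, a change of -0.38 (limma adjusted p = 0.130). EXPA6 did the reverse, from below zero to above zero, a change of 0.16 (adjusted p = 0.284). Among 17754 genes with values on all arrays, 3406 had opposite signs in this sense.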

How the results depend on the processing

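Of the members' values under other settings, 522 kept direction and side of the threshold, 31 gained a call, 12 lost one and 30 turned direction; the cause was not tested. For flank ratios the replicate block, which is the dye orientation, raised the genes called to 4266 (flanks at 10 min, from 0), 6289 (flanks at 30 min, from 96) and 6907 (difference between times, from 23). In the average level, where the block is no dye correction, it gave 1787 (from 801). With a term for replicate number and another for the dye, single flanks had 2921 (lower flank, from 1754) and 1781 (upper flank, from 1070). At 30 min the flank calls were 47 with offset 16, 60 with the processed signals, 61 with the series table and 0 with median centring, and the percent of calls higher in the lower flank went from 62.5 to 89.4, 83.3 and 82.0. The difference between times had 2, 2 and 0 calls with the processed signals, the series table and median centring. Without the dim-probe filter the average level had 504. The lower flank had 963 with processed signals, 434 with median centring and 377 with a common median (51.8% higher, then 39.5, 32.7 and 33.2), and the upper flank 603, 246 and 256 (50.5% higher, then 36.2, 23.2 and 30.9), or 703 on its channel alone. With 1 array left out, calls ranged over 44 to 104 (10 min), 214 to 613 (30 min), 234 to 429 (between times), 446 to 5495 (average level), 577 to 2417 (lower) and 371 to 1738 (upper); the 5495 came without 30 min replicate 2. With other settings, EXPA4 turned at 10 min (0.0069 processed, 0.0070 series table). Median centring turned EXPA5 (0.0076) and EXPA10 (-0.027) at 30 min and EXPA5 between times (0.078). The EXPA5 level turned with a common median (-0.14) and the block (-0.010). With 1 array left out, the 10 min flank values ranged from -0.015 to 0.0015 (EXPA4), -0.051 to 0.021 (EXPA10), -0.019 to 0.081 (EXPA15) and -0.15 to 0.11 (EXPB3). At 30 min they ranged from -0.060 to 0.016, -0.057 to 0.072, -0.094 to 0.020 and -0.033 to 0.18 in the same order. Differences between times ranged from -0.059 to 0.017 (EXPA3), -0.053 to 0.023 (EXPA4), -0.042 to 0.087 (EXPA10) and -0.038 to 0.22 (EXPB3). Average levels ranged from -0.073 to 0.24 (EXPA1), -0.0045 to 0.16 (EXPA3), -0.046 to 0.29 (EXPA4) and -0.010 to 0.064 (EXPA5). Lower-flank changes ranged from -0.28 to 0.065 (EXPA1), -0.0091 to 0.14 (EXPA3), -0.035 to 0.26 (EXPA4) and -0.14 to 0.035 (EXPA10), and the upper-flank change of EXPA4 from -0.058 to 0.31. The block changed no member's call beyond those given with its adjusted p in the report. Among values of named genes from the other lists, 65 lost a call, 30 gained one and 0 turned. A lone array was assumed to vary like the others. A slide block was not run, since each array had its own slide. With 2 arrays a time, the number of arrays limits the precision.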
